A study of Homo sapiens with 6 samples.

Results

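Of the peaks of newly replicated DNA in control and ERCC6L2-/- U2OS cells, 3111 held an uninterrupted run of at least 50 purines on one strand, and these tract peaks are described here. They were chosen from 18840 peaks of 2 deposited consensus lists by sequence alone. A peak had to lie on chromosomes 1 to 22 or X of hg38, more than 3 Mb from a chromosome end, and its reference sequence had to hold 50 or more purines, or 50 or more pyrimidines, in a row. The control list had 8265 peaks in this part of the genome, and 2012 of them were tract peaks. The ERCC6L2-/- list had 6706, and 1099 of them were tract peaks. U2OS is a human osteosarcoma line, and the ERCC6L2-/- cells came from single-cell clones made by CRISPR/Cas9 editing of ERCC6L2, a SNF2-family ATPase. Which clone was sequenced is not given in the sources used here, so a difference between the lists cannot be told apart from a difference between clones. All samples, control included, were given BrdU for 2 h, and DNA carrying the label was pulled down and sequenced, with 3 samples per genotype. Each genotype's samples were merged by the authors into 1 list, so there was no spread between replicates, the read depth was unknown here, and no test across samples could be made. Intervals below are 95% intervals (Wilson for a share, Newcombe for a difference of shares unless stated) and cover counting error only. A peak was called shared when it overlapped a peak of the other list by at least 1 base, and control-only or knockout-only when it did not.

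A polypurine tract has only A and G on one strand and only T and C on the other. Such tracts occur as simple repeats through introns and intergenic DNA, many of them grown from the A-rich tails of Alu elements. Where the sequence also reads the same backwards (a mirror repeat), the duplex can fold into a triplex, H-DNA, a structure known to stall DNA polymerases. BrdU takes the place of thymidine, and within a tract thymidine is found on the pyrimidine strand alone.

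The tracts below show what these peaks hold. For the 4 repeat units with the most tract peaks, and for tracts without a unit, the longest control-only tract, the longest shared control tract or both are given, followed by the 5 longest knockout-only tracts. Longest means the longest of those reported here. Each line gives 20 bases before the tract in lower case and the first 120 bases of the tract in capitals, 5' to 3' on the purine strand, with the hg38 position of the bases shown and the strand that carries the purines.
ICAM2 intron, unit AAAG, control-only, chr17:64014287-64014426, plus strand: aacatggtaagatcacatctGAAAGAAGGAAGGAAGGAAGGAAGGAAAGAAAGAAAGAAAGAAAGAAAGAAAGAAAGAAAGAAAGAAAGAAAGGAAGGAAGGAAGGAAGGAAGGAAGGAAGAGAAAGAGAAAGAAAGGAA
no gene, unit AAAG, shared, chr5:44688284-44688423, plus strand: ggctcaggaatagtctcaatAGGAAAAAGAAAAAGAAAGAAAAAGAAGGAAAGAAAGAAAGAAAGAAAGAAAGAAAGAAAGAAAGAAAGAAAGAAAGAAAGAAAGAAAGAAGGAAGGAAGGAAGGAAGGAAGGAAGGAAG
ENSG00000285517 intron, unit AAGG, control-only, chr12:30869839-30869978, plus strand: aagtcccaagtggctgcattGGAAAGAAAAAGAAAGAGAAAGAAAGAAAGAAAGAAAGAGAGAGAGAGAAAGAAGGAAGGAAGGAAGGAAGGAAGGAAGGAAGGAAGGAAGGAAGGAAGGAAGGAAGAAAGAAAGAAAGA
SOX9-AS1 intron, unit AAG, shared, chr17:72146665-72146804, plus strand: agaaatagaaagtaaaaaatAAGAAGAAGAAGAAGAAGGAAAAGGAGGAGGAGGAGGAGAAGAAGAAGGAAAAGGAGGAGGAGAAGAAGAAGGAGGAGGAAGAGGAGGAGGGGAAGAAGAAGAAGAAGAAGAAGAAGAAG
no gene, unit AG, control-only, chr5:121705109-121705248, plus strand: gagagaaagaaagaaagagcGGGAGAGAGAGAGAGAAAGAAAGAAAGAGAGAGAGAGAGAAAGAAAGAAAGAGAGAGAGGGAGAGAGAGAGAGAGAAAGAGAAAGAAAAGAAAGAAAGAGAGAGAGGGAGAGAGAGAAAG
no gene, unit AG, shared, chr18:25033485-25033624, plus strand: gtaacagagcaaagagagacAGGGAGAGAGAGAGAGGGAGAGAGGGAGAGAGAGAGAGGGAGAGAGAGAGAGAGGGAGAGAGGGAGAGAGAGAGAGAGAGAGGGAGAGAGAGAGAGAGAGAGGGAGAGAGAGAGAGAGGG
no gene, no unit, control-only, chr4:182833904-182834043, minus strand: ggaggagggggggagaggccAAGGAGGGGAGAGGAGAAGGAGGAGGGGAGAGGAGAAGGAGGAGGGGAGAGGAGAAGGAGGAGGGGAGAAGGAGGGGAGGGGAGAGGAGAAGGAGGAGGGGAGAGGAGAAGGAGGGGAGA
CTNND2 intron, no unit, shared, chr5:11816578-11816717, plus strand: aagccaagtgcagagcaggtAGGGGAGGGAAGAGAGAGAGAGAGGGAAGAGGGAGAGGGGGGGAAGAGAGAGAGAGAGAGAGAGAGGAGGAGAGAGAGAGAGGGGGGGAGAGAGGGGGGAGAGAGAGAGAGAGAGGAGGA
TTC41P intron, no unit, knockout-only, chr12:103905330-103905469, plus strand: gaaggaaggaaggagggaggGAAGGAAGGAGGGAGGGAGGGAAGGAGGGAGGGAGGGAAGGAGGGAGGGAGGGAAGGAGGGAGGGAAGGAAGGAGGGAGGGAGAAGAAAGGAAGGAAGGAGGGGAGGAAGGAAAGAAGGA
PLXNA4 intron, no unit, knockout-only, chr7:132151224-132151363, plus strand: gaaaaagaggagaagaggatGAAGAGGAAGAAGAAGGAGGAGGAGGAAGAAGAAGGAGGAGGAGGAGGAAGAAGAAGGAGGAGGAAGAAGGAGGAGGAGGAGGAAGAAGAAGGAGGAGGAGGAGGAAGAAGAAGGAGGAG
no gene, no unit, knockout-only, chr12:61029699-61029838, minus strand: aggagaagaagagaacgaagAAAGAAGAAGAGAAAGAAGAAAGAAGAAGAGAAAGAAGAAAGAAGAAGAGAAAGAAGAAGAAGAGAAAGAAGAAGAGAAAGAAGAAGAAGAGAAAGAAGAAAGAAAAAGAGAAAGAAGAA
no gene, no unit, knockout-only, chr2:184540370-184540509, plus strand: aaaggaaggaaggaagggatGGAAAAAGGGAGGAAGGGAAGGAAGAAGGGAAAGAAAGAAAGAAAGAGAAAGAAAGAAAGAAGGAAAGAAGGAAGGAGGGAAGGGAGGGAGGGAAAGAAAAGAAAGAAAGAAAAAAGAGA
ENSG00000260573 intron, unit AAG, knockout-only, chr16:50486316-50486455, minus strand: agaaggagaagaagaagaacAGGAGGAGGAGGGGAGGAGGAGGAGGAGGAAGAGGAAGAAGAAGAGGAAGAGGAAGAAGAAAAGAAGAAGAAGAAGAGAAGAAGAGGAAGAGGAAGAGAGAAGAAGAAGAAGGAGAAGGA

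The longest tract in either list lay in an intron of CTNND2, which encodes the adhesion protein delta-catenin, and ran for 868 bases. Its control peak was 1152 bases wide and its ERCC6L2-/- peak 1148. The authors scored each peak by the -log10 of a p-value, and where that p-value was too small to store the score reads infinite, here called the score ceiling. The CTNND2 control peak was at the ceiling, and the ERCC6L2-/- peak scored 260.725. At the shared AAAG tract of chromosome 5, which is 817 bases long, the widths were 994 and 797 bases and the knockout score was 187.008. The control-only AAAG tract in ICAM2, which encodes an adhesion molecule of endothelial and blood cells, was 477 bases long, its peak was at the ceiling, and the nearest ERCC6L2-/- peak was 512489 bases away. The longest knockout-only tract, in TTC41P, measured 448 bases inside its peak, which was at the ceiling, with the nearest control peak 251291 bases away. This tract and the 405-base knockout-only tract of chromosome 12 were cut by the edge of the peak and measure 477 and 409 bases in the reference, so lower-case bases next to the capitals of those lines are purines too. The PLXNA4 tract, in the gene of a semaphorin receptor, was 419 bases long with a peak score of 239.797. The longest control-only tract measured 757 bases, on chromosome 4. Its peak had an ERCC6L2-/- peak 291 bases from the peak edge and counts as shared if a gap of 1 kb is allowed.

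Control tract peaks lacked an ERCC6L2-/- counterpart more often than other control peaks did. Of the 2012 control tract peaks, 1095 were control-only (54.4%, 52.2 to 56.6%), beside 35.8% of all control peaks in the same part of the genome. Among the 6253 control peaks without a tract the share was 29.8% (28.7 to 31.0%), a difference of 24.6 points (22.1 to 27.0). Taken as a whole, the knockout list did not show this, though its difference varied with base composition, as given below. Of its 1099 tract peaks, 192 were knockout-only (17.5%, 15.3 to 19.8%), beside 20.7% of all its peaks and 21.4% (20.3 to 22.5%) of its 5607 tract-free peaks, a difference of -3.91 points (-6.31 to -1.33). This difference was small, and its interval included 0 without the margin at chromosome ends (-2.34 points, -4.64 to 0.137) and among peaks at the score ceiling (-0.165 points, -2.59 to 2.67). It was negative below 42% GC and at 54% GC or more, and positive in the bands between. Peaks at centromeres were not excluded from the tract-free peaks. The authors reported clusters of unique ERCC6L2-/- peaks over alpha-satellite DNA, and their part in this difference was not tested. Tract peaks made up 24.3% of the control list (23.4 to 25.3%) and 16.4% of the knockout list (15.5 to 17.3%). Per list, there were 1.83 control tract peaks for each ERCC6L2-/- tract peak, against 1.12 for tract-free peaks. Over both lists the tract peaks fell at 2206 separate places, of which 903 had a tract peak of each list, 1109 of control alone and 194 of ERCC6L2-/- alone. The nearest peak of the other list was a median of 141849 bases away for control-only and 94526 bases for knockout-only tract peaks. The control-only share was above the knockout-only share on each of 23 chromosomes, from 39.2% to 65.8% against 0 to 31.4%. The control list also had more tract peaks on each of them. Shared tract peaks were about as many in each list (917 and 907), so this order goes with list size and adds little to the counts above. Among control peaks at the score ceiling, 44.2% of tract peaks (41.6 to 46.7%) and 16.8% of tract-free peaks (15.7 to 18.0%) were control-only.

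**Figure D1:**
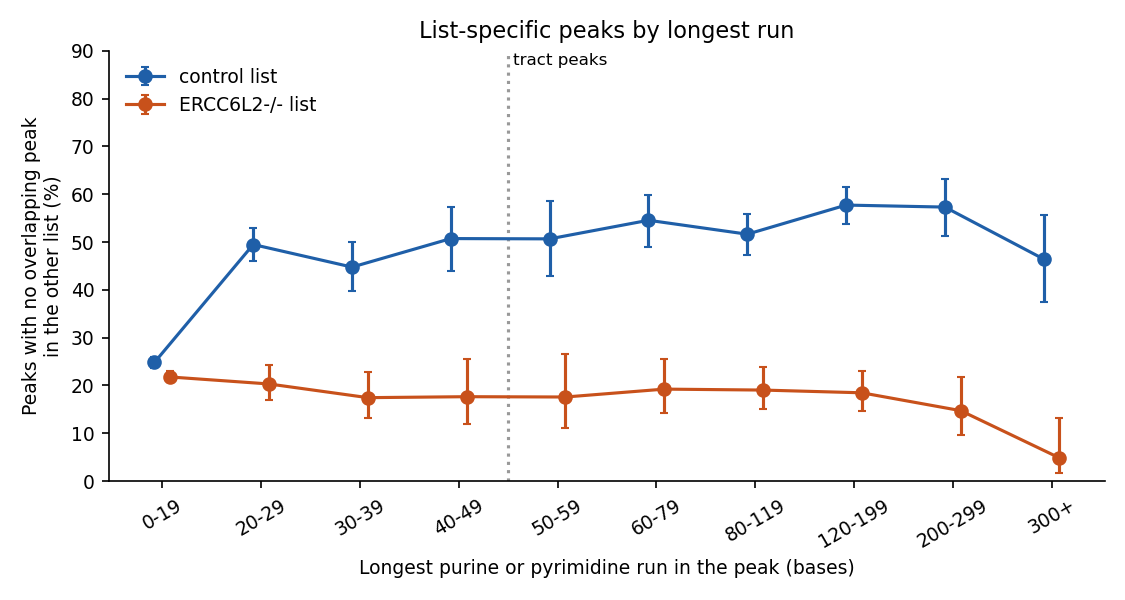
Share of peaks without an overlapping peak in the other list (y axis, %) by the longest purine or pyrimidine run in the peak (x axis, bases), for the control and ERCC6L2-/- lists. Bars are 95% Wilson intervals and the dotted line marks the limit of 50 bases. The control share stood at 24.8% below 20 bases and between 44.8% and 57.7% in all longer bins, while the ERCC6L2-/- share went from 21.8% to 4.84%.

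In the control list the step lay between runs under 20 bases and runs of 20 to 29. Median peak width also fell at this step, from 774 to 617.5 bases, and the bins were not compared at equal width. Control peaks whose longest run was under 20 bases were control-only in 24.8% of cases (23.6 to 26.0%), those with runs of 20 to 29 bases in 49.5% (45.9 to 53.0%), and those with runs of 120 to 199 bases in 57.7% (53.9 to 61.5%). No step was seen at the limit of 50 bases. Peaks with runs of 45 to 49 bases, just outside it, were control-only in 45 of 95 cases (47.4%), and those of 50 to 54 bases in 39 of 82 (47.6%). In the knockout list the same bins held 10 of 57 (17.5%) and 9 of 52 (17.3%). For tracts of 300 bases or more, 52 of 112 control peaks were control-only (46.4%, 37.5 to 55.6%) and 3 of 62 ERCC6L2-/- peaks were knockout-only (4.84%, 1.66 to 13.3%). The plot of shares by longest run shows the 2 lists nearest each other at the shortest runs and far apart from 20 bases on.

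Tract peaks were narrower than other peaks, and in both lists peaks under 450 bases were the most often list-only. The comparison was therefore repeated within bands of width and of base composition. In tract-free ERCC6L2-/- peaks the knockout-only share did not fall throughout with width. It was 39.4% under 450 bases, 14.4% at 700 to under 1000 bases and 21.9% at 1 kb or more. These bands were chosen after the data were seen. Control-only tract peaks had a median width of 523 bases and shared control tract peaks 631, against 568 and 820 for tract-free peaks. Among control peaks from 450 to under 550 bases wide, 64.6% of tract peaks and 46.3% of tract-free peaks were control-only, a difference of 18.3 points (13.6 to 22.9). In the other 4 width bands the difference lay between 10.4 and 20.8 points, with intervals above 0. Within bands of base composition the difference was uneven. Below 42% GC the control-only shares were 69.2% and 22.9%, a difference of 46.4 points (40.4 to 51.9). At 42 to 46% GC they were 69.7% and 39.1%, a difference of 30.6 points (25.1 to 35.8). Between these 2 bands the tract share was thus alike, and it was the tract-free share that differed. The gap closed as GC rose, to 14.0 points (8.53 to 19.4) at 50 to 54% GC and to 1.71 points (-3.84 to 7.67) at 54% GC or more, where 29.7% of tract peaks and 28.0% of tract-free peaks were control-only. For the ERCC6L2-/- list the sign changed with the band, from -24.0 points (-29.7 to -15.5) below 42% GC to 9.88 points (3.69 to 17.1) at 42 to 46% GC. By width it went from 2.78 points (-4.66 to 10.4) under 450 bases to -21.9 points (-23.8 to -16.0) at 1 kb or more, where 0 of 65 tract peaks were knockout-only, which allows a share of up to 4.62% (3 counts of the total, with a Wilson upper bound of 5.58%).

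**Figure D2:**
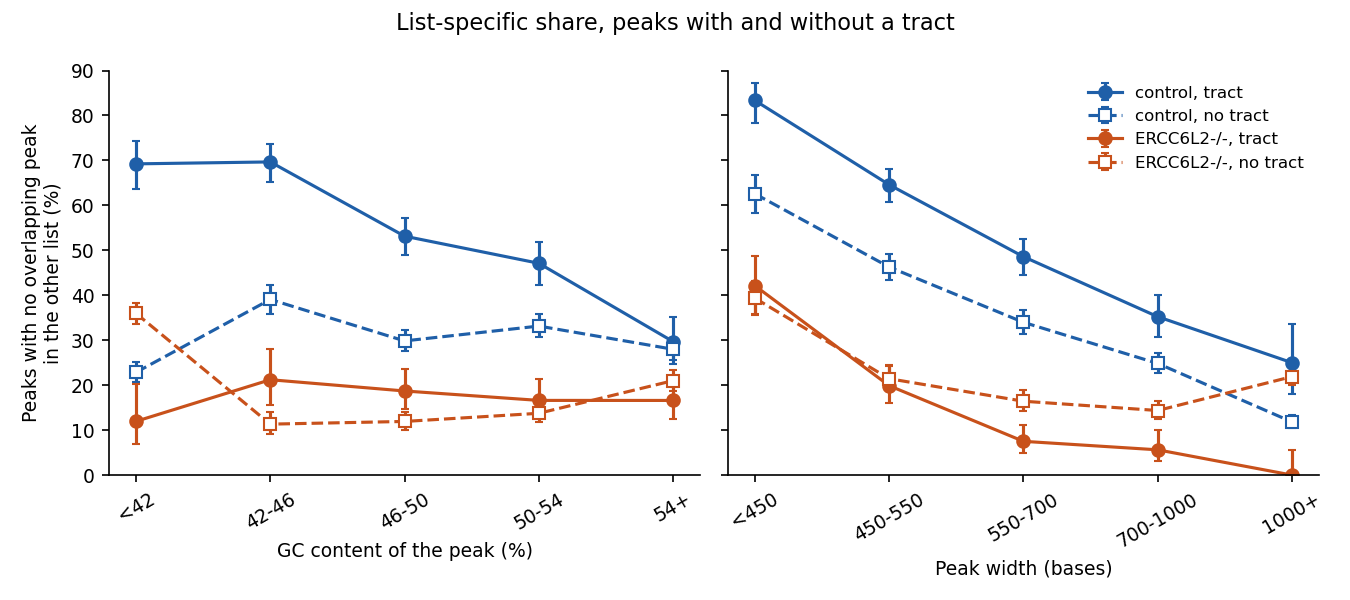
Share of peaks without an overlapping peak in the other list (y axis, %) by GC content (left) and by width (right) of the peak, with tract peaks as filled circles and tract-free peaks as open squares, for both lists. Bars are 95% Wilson intervals. Control tract peaks lay above control tract-free peaks in each band, but by only 1.71 points at 54% GC or more.

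The tracts of control-only peaks were poorer in G than those of the other sets of tract peaks. The purine strand of their longest tract had a median of 45.5% G, with quartiles of 38.0 and 52.2%. In the other sets the medians were close together, at 50.8% for shared control, 50.8% for shared ERCC6L2-/- and 51.0% for knockout-only tract peaks. All reference tracts had a median of 41.9% G, below each of the 4 sets. Each further G in place of A takes away a thymidine from the pyrimidine strand, so at the median the control-only tracts had the most thymidine per base of the 4 sets. Of control tracts with under 30% G, 40 of 50 were control-only (80%, 67.0 to 88.8%). The share was 72.3% (67.9 to 76.3%) at 30 to 40% G, 57.3% (53.5 to 61.0%) at 40 to 50% G, 41.7% (38.1 to 45.3%) at 50 to 60% G and 42.2% (34.5 to 50.3%) above. In the knockout list there was no such fall. Knockout-only shares were 16.7% (2 of 12 tracts) under 30% G, 22.9% (16.7 to 30.5%) at 30 to 40% G, 14.9% (11.5 to 19.0%) at 40 to 50% G, 15.6% (12.6 to 19.0%) at 50 to 60% G and 27.5% (20.01 to 36.6%) above 60% G. The fall in the control list was also present among peaks at the score ceiling, where the shares were 60.9% under 40% G, 50.3% at 40 to 50% G and 34.6% from 50% G, and among peaks of single-copy sequence, where they were 76.2%, 58.1% and 41.7%.

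**Figure D3:**
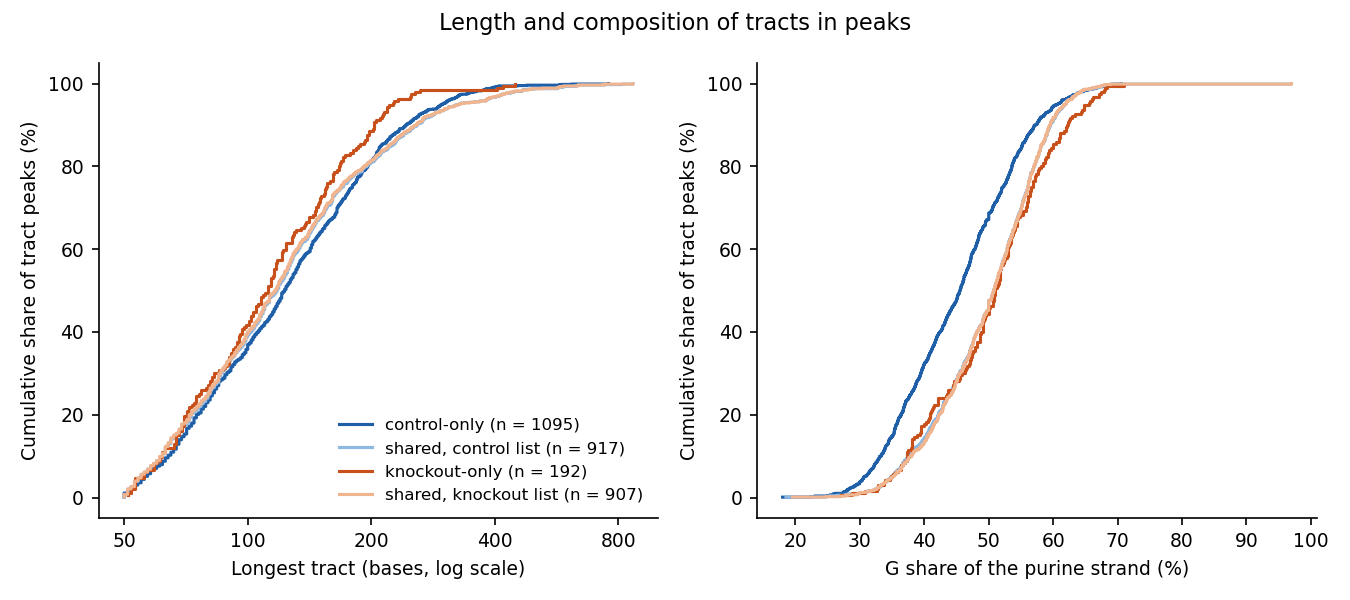
Cumulative share of tract peaks (y axis, %) by the length of the longest tract (left, bases on a log axis) and by the G share of its purine strand (right, %), with a line for each of the 4 sets of tract peaks. The lengths of the sets lie close together, with the knockout-only set the shortest (median 112 bases), whereas control-only tracts lie to the left in G share (median 45.5% against 50.8% for shared control tracts).

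Length told the sets apart far less. Median tract lengths were 123 bases for control-only and 118 for shared control peaks, a difference of 5 bases whose interval included 0 (-1.40 to 13.6), and 112 for knockout-only and 117 for shared ERCC6L2-/- peaks. Tracts of 120 bases or more were held by 52.5% of control-only and 42.7% of knockout-only peaks, a difference of 9.80 points (2.14 to 17.2). Many peaks held further tracts. There were 2 or more tracts of 50 bases in 57.4% of control-only and 70.6% of shared control peaks (control-only minus shared -13.1 points, -17.2 to -8.92), and in 52.1% of knockout-only and 70.9% of shared ERCC6L2-/- peaks. Neighbouring tracts ran the same way, with all tracts of a peak purine on the same strand in 626 of 629 control-only peaks and 644 of 647 shared control peaks that had more than 1.

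The repeat unit is the shortest word whose repetition accounts for a tract, called here where the tract matched itself at a shift of 1 to 10 bases in at least a fraction of 0.85 of its positions. Most tracts were mixtures without such a unit, as the printed CTNND2 tract is, and 448 of 2012 control tracts (22.3%, 20.5 to 24.1%) and 198 of 1099 ERCC6L2-/- tracts (18.0%, 15.9 to 20.4%) had one. A unit was called for 280 of 1095 control-only tracts (25.6%, 23.1 to 28.2%) and 168 of 917 shared control tracts (18.3%, 16.0 to 21.0%), a difference of 7.25 points (3.62 to 10.8). At a required match of 0.95 the counts were 28 and 32 and the sign turned, to -0.93 points (-2.53 to 0.57). Among control tracts with the unit AAAG, like the one in ICAM2, 76.4% of 123 were control-only (68.2 to 83.1%), and with AAGG 67.9% of 140 (59.7 to 75.03%). The unit AAG gave 57.6% of 59 (44.9 to 69.4%) and AG 45.8% of 48 (32.6 to 59.7%). In the ERCC6L2-/- list, 3 of 28 tracts with the unit AAAG were knockout-only (10.7%, 3.71 to 27.2%), and 12 of 58 with AAGG (20.7%, 12.3 to 32.8%), and both intervals hold the 17.5% of all its tract peaks.

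Since few tracts had a unit, each was also described by its most frequent word of 4 purines, rotations counted together, a measure added after the data were seen. Tracts led by AAAG made up 40.3% of control-only and 21.3% of shared control peaks, 19.0 points apart (15.0 to 22.9). They made up 24.5% of knockout-only and 20.6% of shared ERCC6L2-/- peaks, a difference of 3.86 points whose interval included 0 (-2.33 to 10.9). AAAG led 42.02% of all reference tracts, so control-only peaks stood near the reference share and the other sets well below it. Reference tracts led by AAAG lay wholly inside a control peak in 7.21% of cases, against 16.03% of those led by AAGG. For ERCC6L2-/- peaks these shares were 2.77% and 10.25%. The control-only share was 69.3% of 636 AAAG-led tracts (65.6 to 72.8%), 49.8% of 913 led by AAGG (46.6 to 53.1%), 44.9% of 158 led by AGAG (37.4 to 52.7%) and 42.1% of 304 led by AGGG (36.7 to 47.7%). Counted per list, the control list held 2.72 AAAG-led tract peaks for each one of the ERCC6L2-/- list, against 1.65 for AAGG and 1.40 for AGGG. AGGG-led tracts made up 11.7% of control-only peaks against 19.2% of shared control peaks, a difference of -7.50 points (-10.7 to -4.34). They made up 23.4% of knockout-only and 19.0% of shared ERCC6L2-/- peaks, 4.47 points apart with an interval that included 0 (-1.59 to 11.4).

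The reference itself holds far more tracts than the peaks do. On the same chromosomes and margin there were 44558 runs of 50 or more, of which 4442 lay wholly inside a control peak (9.97%, 9.69 to 10.3%) and 2526 inside an ERCC6L2-/- peak (5.67%, 5.46 to 5.89%), 4.30 points apart (4.08 to 4.52, an interval for paired counts). Those in control peaks alone numbered 2120 and those in ERCC6L2-/- peaks alone 316, counting as alone a tract that no peak of the other list touches. Both lists took in longer tracts more often. At 50 to 59 bases the shares were 6.82% and 4.18%, and at 300 bases or more they were 31.5% (26.7 to 36.7%) and 15.0% (11.5 to 19.3%) of 327 tracts. Tracts of near pure A were missing from both lists. Of 388 tracts with under 5% G, 0 lay in a peak of either list, which allows a share of up to 0.773% by the same 3 counts (Wilson upper bound 0.980%). At 5 to 20% G only 5 and 2 of 4644 did. From there the control share rose to 17.2% at 50 to 60% G and the ERCC6L2-/- share to 12.1%, and both were lower above 60% G, at 9.59% and 6.58%. The ratio of control to ERCC6L2-/- fell along this axis, from 3.32 at 20 to 30% G (166 and 50 tracts) to 2.70, 1.88 and 1.42 in the next 3 bins, with 1.46 above 60% G.

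**Figure D4:**
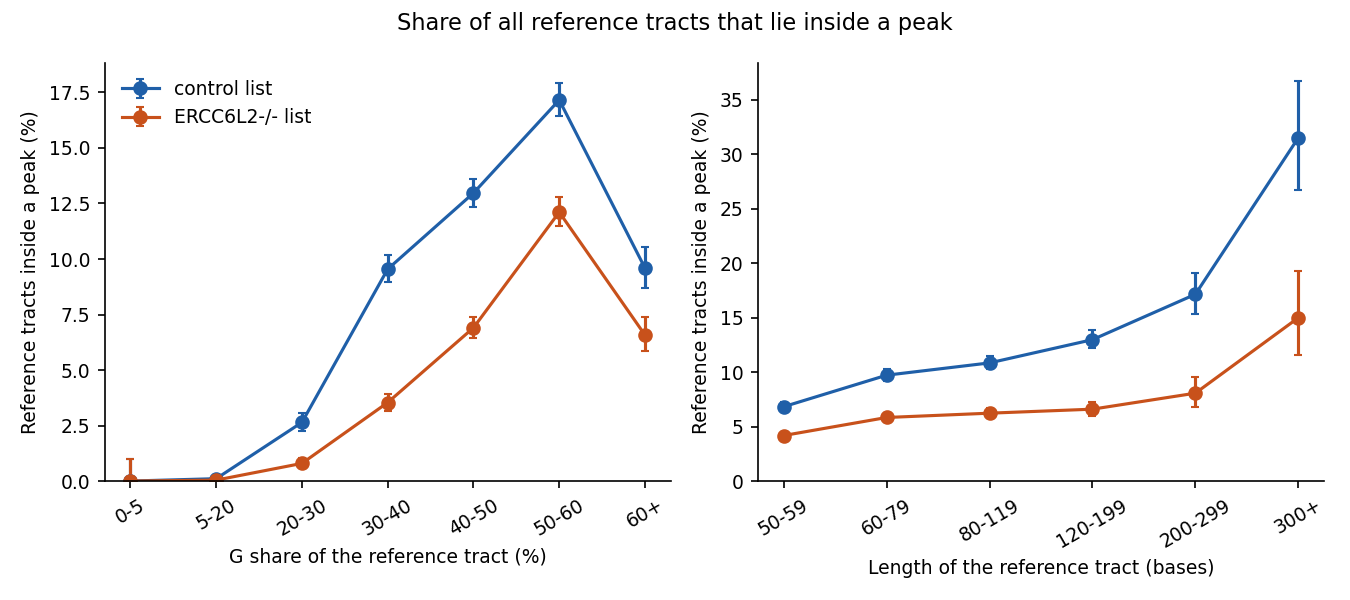
Share of all reference tracts of at least 50 bases that lie wholly inside a peak (y axis, %) by G share of the purine strand (left, %) and by tract length (right, bases), for the control and ERCC6L2-/- lists. Bars are 95% Wilson intervals. Tracts that share a peak were counted as separate, so the bars are too narrow. Both lists peak at 50 to 60% G, at 17.2% and 12.1%, and reach 31.5% and 15.0% for tracts of 300 bases or more.

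Of the 6 classes of G share and length compared, long tracts of 30 to 40% G had the highest ratio. At 30 to 40% G the control share went from 9.27% (8.56 to 10.0%) of tracts under 120 bases to 12.4% (10.4 to 14.7%) of those of 200 or more, whereas the ERCC6L2-/- share went from 3.94% (3.47 to 4.46%) to 2.50% (1.67 to 3.73%). The ratio between the lists was thus 2.35 for short and 4.96 for long tracts of this composition, the latter from 114 and 23 of 919 tracts. At 50 to 60% G both shares rose with length, from 15.4% to 44.4% in control and from 10.95% to 30.8% in ERCC6L2-/-, and the ratio stayed at 1.41 and 1.44. The mirror arm is the longest stretch in a tract that is followed, at most 8 bases on, by its own reversed letters. Tracts with a mirror arm of 15 bases or more lay in control peaks in 8.18% and in ERCC6L2-/- peaks in 4.31% of cases, against 11.6% and 6.89% of tracts with shorter arms. Arms of 15 or more were held by 55.4% of control-only and 48.2% of shared control tracts, 7.23 points apart (2.85 to 11.6). They were held by 51.6% of knockout-only and 47.0% of shared ERCC6L2-/- tracts, 4.59 points apart (-3.15 to 12.3), and by 47.3% of reference tracts. Control-only minus knockout-only was 3.87 points (-3.70 to 11.5), so the trait did not set these 2 apart beyond the interval. A G-quadruplex motif, 4 runs of 3 or more G parted by loops of 1 to 7 bases, is a pattern known to fold into another polymerase-stalling structure. It occurred inside 29.9% of control-only and 31.4% of shared control tracts, -1.54 points (-5.60 to 2.49), but in 40.6% of knockout-only tracts, or -10.8 points for control-only minus knockout-only (-18.3 to -3.51).

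Where both lists had a peak at a tract, the control peak was usually the broader. Among 900 pairs in which 1 peak of each list overlapped only the other and both held a tract, the control peak was wider in 683 (75.9%, 73.0 to 78.6%) and the ERCC6L2-/- peak in 213. Median widths were 625 and 580.5 bases. The control peak was at the ceiling in 89.1% and the ERCC6L2-/- peak in 61.4%. Control alone was at the ceiling in 253 pairs, ERCC6L2-/- alone in 4 and neither in 94, and in the remaining pairs, the majority, both were and so tied in score. Among 4292 pairs without a tract the control peak was wider in 66.4%, a difference of 9.51 points (6.29 to 12.55), and control alone was at the ceiling in 16.2% against 28.1% of tract pairs, 11.9 points (8.81 to 15.1). Among list-only tract peaks, 58.9% of control-only and 33.9% of knockout-only peaks were at the ceiling. Read depth, which moves both width and score, is unknown here and cannot be told apart from genotype in these lists.

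The tract usually lay near the middle of its peak. Its centre was a median of 65.5 bases from the peak centre in control-only, 97.0 in shared control, 67.8 in knockout-only and 92.5 in shared ERCC6L2-/- peaks. With each peak cut into 3 equal parts, the central part held the tract centre in 63.8% of control-only and 53.98% of shared control peaks, 9.86 points apart (5.54 to 14.1). In the knockout list it did so in 56.3% of knockout-only and 52.6% of shared peaks, 3.66 points apart (-4.12 to 11.2). Control-only peaks were also narrower than shared control peaks (medians 523 and 631 bases), and the part of width in this was not tested. The edge of the peak cut the tract short in 2.83% of control-only and 1.963% of shared control peaks, and in 6.77% of knockout-only and 5.95% of shared ERCC6L2-/- peaks. Along the purine strand the tract was shifted to the 5' side of the peak centre in all 4 sets, by a median of 16.5 bases in control-only, 29 in shared control, 18.5 in knockout-only and 30 in shared ERCC6L2-/- peaks. Of tracts off the peak centre, the 5' side held 58.7% of control-only (55.8 to 61.6%), 58.3% of shared control (55.1 to 61.5%), 59.2% of knockout-only (52.1 to 65.9%) and 58.7% of shared ERCC6L2-/- peaks (55.4 to 61.8%), and these intervals overlap. The purine strand was the plus strand of the reference in 49.9% of control-only peaks (46.9 to 52.8%).

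**Figure D5:**
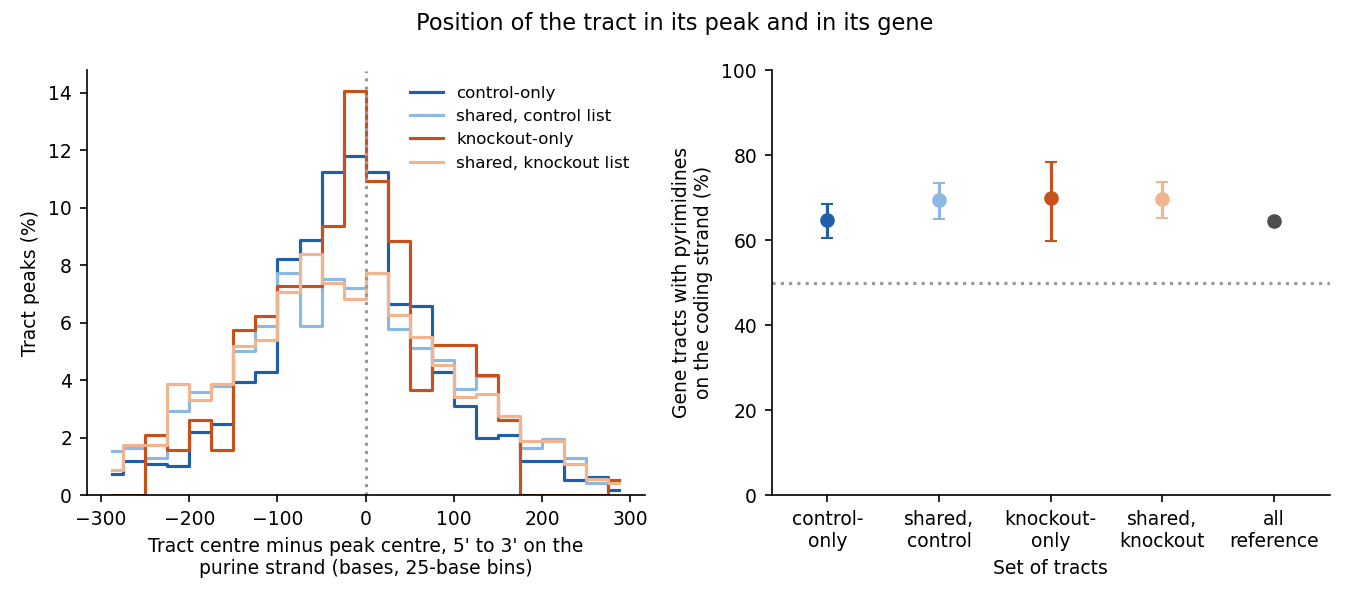
Left, distance from peak centre to tract centre along the purine strand (x axis, bases in 25-base bins, 5' side negative, distances within 300 bases, which hold 93.8 to 99.0% of each set) against the share of tract peaks (y axis, %). Right, share of tracts in genes of 1 strand whose pyrimidines are on the coding strand (y axis, %), with 95% Wilson intervals, a dotted line at 50% and all reference tracts for comparison at 64.7%.

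About as many tract peaks lay in genes as tracts of the reference do. The tract midpoint fell in an annotated gene in 53.7% of control (51.5 to 55.9%) and 53.3% of ERCC6L2-/- tract peaks (50.4 to 56.3%), beside 54.7% of reference tracts, and nearly all of these were intronic (1051 of 1081 in the control list). Coding exons held 1 control-only and 2 shared control tracts, and UTRs 4 and 9. The pyrimidine strand was more often the coding strand, the one that reads like the RNA. This was so for 64.7% of 539 control-only (60.6 to 68.7%), 69.5% of 452 shared control (65.1 to 73.5%), 70.0% of 90 knockout-only (59.9 to 78.5%) and 69.8% of 447 shared ERCC6L2-/- tracts (65.4 to 73.9%). The sets did not differ beyond their intervals (control-only minus shared control -4.72 points, -10.5 to 1.17). The reference has the same lean, with pyrimidines on the coding strand in 64.7% of 22557 gene tracts (64.1 to 65.3%), so the control tract peaks stood 2.22 points from it (-0.84 to 5.14) and the ERCC6L2-/- tract peaks 5.15 points above it (1.09 to 8.93).

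Some genes held several control tract peaks. Of the genes reported here, 28 had 3 or more in their span, 21 of them protein-coding, and the 9 with 4 or more are named. RBFOX1, a splicing regulator with a gene span of 2.47 Mb, had 7 control tract peaks, 2 of them control-only, and 6 ERCC6L2-/- tract peaks, 1 of them knockout-only. MYO18B, an unconventional myosin of muscle, had 5, of which 4 were control-only, and 1 ERCC6L2-/- tract peak. Its tracts ran from 85 to 202 bases. The strand varied between the genes, with pyrimidines on the coding strand at all 5 tracts of MYO18B and all 4 of ZNF536, but at 3 of 7 in RBFOX1, 1 of 4 in HECW1 and 2 of 4 in both CALN1 and ENSG00000250781. The lncRNA gene ENSG00000280441 on chromosome 21 had 5 in each list, all shared, with tracts of 65 to 85 bases. None of the 50-base words of these 5 control peaks (0%) was single-copy in the reference, so a read of 50 bases from them could not be placed uniquely. The overlapping lncRNA genes ENSG00000282863 and LINC00595 on chromosome 10 had 5 and 4, with 3 control-only in each, and the second lies within the span of the first. HECW1, a ubiquitin ligase gene, had 4 with 3 control-only, and so had the lncRNA gene ENSG00000250781. ZNF536, a zinc finger gene, had 4 with 2 control-only, and CALN1, a gene for a neuronal calcium-binding protein, had 4 with 1 control-only. These genes were chosen by their number of control tract peaks, so their list-only counts, to be read beside 54.4% control-only and 17.5% knockout-only over all tract peaks, are a description.

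The sequence before the tract pointed to Alu elements in a minority of peaks. The most frequent word of 12 bases in the 100 bases before the tracts was found in 299 of the 3111 tract peaks and matches bases 263 to 274 of the 7SL RNA gene RN7SL1, from which Alu elements derive, as at the 3' end of an Alu before its A-rich tail. This word preceded 13.3% of control-only (11.4 to 15.5%) and 7.20% of shared control tracts (5.70 to 9.05%), 6.14 points apart (3.49 to 8.75), and 11.98% of knockout-only against 7.06% of shared ERCC6L2-/- tracts, 4.92 points (0.64 to 10.5). Reference tracts had it in 18.0% of cases (17.7 to 18.4%), and of those with it 3.96% lay in a control peak and 1.67% in an ERCC6L2-/- peak, against 11.3% and 6.55% of those without. The list-only tracts of both genotypes thus had the word more often than the shared ones, and all 4 sets less often than the reference. The searched 100 bases differed too. Their median purine share was 72% in control-only, 88% in shared control, 71.5% in knockout-only, 89% in shared ERCC6L2-/- and 59% in reference tracts. The word is mostly pyrimidines, so a purine-rich flank leaves it less room, and the part of this was not tested. Only exact matches were counted, so diverged Alu ends were missed.

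How repeated the sequences are was measured by the copies of each 50-base word of a peak in the reference. At least 90% of the words were single-copy in 65.9% of control-only (63.1 to 68.7%), 69.1% of shared control, 69.8% of knockout-only and 68.1% of shared ERCC6L2-/- tract peaks. The median word occurred more than once in 2.83%, 5.02%, 4.17% and 5.40% of them. With tract peaks of at least 90% single-copy words alone, the control-only share was 53.2% (50.6 to 55.9%) and the knockout-only share 17.8% (15.2 to 20.7%).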

How the data were processed

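Nascent DNA was labelled with BrdU, immunoprecipitated and sequenced in 3 control and 3 ERCC6L2-/- U2OS samples. Per the study's methods, the authors used TrimGalore for trimming, BOWTIE2 for alignment (hg38 patch 12), Picard to remove duplicates, MACS2 for peaks of each sample and MSPC to merge the 3 samples of a genotype. Versions, thresholds and the handling of reads that map to several places are not given in the sources used here. The deposited consensus lists hold positions and a score, the -log10 of the p-value, infinite where too small to store. The deposited lists of peaks unique to a genotype hold positions and peak names, with no score. They were used as a check of overlap and contained all 2961 control-only and 1391 knockout-only peaks. Depth is unknown.

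Peak sequences were read from hg38 (pysam 0.24.0, samtools 1.23.1) and genes from GENCODE release 44. The longest run of purines or pyrimidines per peak was the tract. Its repeat unit was the shortest shift of up to 10 bases at which a fraction of 0.85 of positions matched. Unit letters were taken from the most frequent word of that length, a change made after the data were seen, since the modal letter at each phase gave other letters for 135 of 646 tracts. Shares and intervals were computed in Python 3.11.15 with numpy 2.4.6 and pandas 2.3.3, and the steps were tested on simulated data. With 1 merged list per genotype there was no test. Named peaks were, for each of the 6 leading units and for mixed tracts, the longest control-only and longest shared control tract, plus the 5 longest knockout-only tracts, and named genes those of these tracts and those with the most control tract peaks (3 or more, at most 10 genes). Not all of these are printed, and some named peaks, as well as one autosome's sequences and host genes, are not reported here. The members and lists were chosen with earlier results of these data known. Leading words, the Alu word, bins of G content and bands of GC and width were added after the data were seen. Alternatives covered the overlap, the tract length, interruptions, the score, the searched window, the margin, copies, chromosomes, the self-match, gene type and chaining.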

Additional observations from a re-analysis of the deposited data

How the results depend on the processing

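Of 89 alternative values, 75 stayed within the error of the value reported, 13 moved beyond it and 1 changed sign. A change of sign was counted only where the interval of the value reported excluded 0. The difference in median tract length between control-only and shared control peaks, whose interval included 0, went from 5 to -1 bases in single-copy peaks. It is among those within the error. With peaks at the score ceiling alone, the control-only share of tract peaks was 44.2%, the knockout-only share 10.5%, their differences from tract-free peaks 27.4 and -0.165 points, the gap between the lists in the share of peaks with a tract 9.83 points, and that in the share of reference tracts under a peak 4.04 points. Tracts of at least 80 bases gave gaps of 6.33 and 5.82 points for the last 2 measures, and the reference gap was 3.13 points at 40 bases and 5.04 at 60. Without the margin at chromosome ends the knockout difference was -2.34 points and its interval reached 0.137, a change within its error. In bands chosen after seeing the data, the control difference was 1.71 points at 54% GC or more and 18.3 points at widths from 450 to under 550 bases. The excess of tracts with 1 repeat unit among control-only peaks was 3.48 points in single-copy peaks and -0.933 points at a self-match of 0.95. The cause was not tested for any of these. No paired analysis was possible because each genotype's samples were merged into 1 list, and for the same reason no sample could be left out. Depth is unknown, so a peak missing from a list may lie below its detection limit.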

Other observations

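Peaks within 3 Mb of a chromosome end were not among the tract peaks described above. Of 1366 control peaks there, 86 held a tract of 50 or more (6.30%, 5.13 to 7.71%), and 41 of the 86 were control-only (47.7%, 37.4 to 58.1%). Of 1237 ERCC6L2-/- peaks, 53 held one (4.28%, 3.29 to 5.56%), and 9 of the 53 were knockout-only (17.0%, 9.20 to 29.2%). In 14 shared pairs the control peak alone held a tract of 50 or more, and in 2 the ERCC6L2-/- peak alone did.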
